A study of Rattus norvegicus with 33 samples.

Results

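Segmented filamentous bacteria were read out in the cecal contents of hypertensive and normotensive rats through every deposited bacterial row whose genus or species name holds Arthromitus, Savagella or segmented filamentous. The rule found 4 of 6998 rows: the genus Candidatus Arthromitus among 1455 genera, and 3 rows among 5543 species, namely Candidatus Arthromitus sp. SFB-rat-Yit, sp. SFB-mouse and sp. SFB-mouse-NL. No row carried the other name of these bacteria, Savagella. The rows are nested, since the reads of the genus equalled the sum of the reads of its 3 species rows in 33 of 33 rats.

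The study took cecal fecal matter at endpoint from rats aged 14 to 15 weeks and sequenced its DNA by the shotgun method, 1 library per rat. The SHR groups were 10 females and 7 males, and the WKY groups 9 females and 7 males. SHR is the spontaneously hypertensive rat, an inbred line whose blood pressure climbs without any treatment, and WKY is the Wistar Kyoto rat, its normotensive comparison strain. The labels name no treatment and no engineered allele in any group. A library held 163140 to 886827 assigned reads, and the median depth was 365717 in the females and 547938 in the males of SHR, against 706634 and 688051 in those of WKY. The sample titles run in numbers that do not mix the strains, and no source says whether they follow an order of processing, so an effect of such an order and strain cannot be told apart.

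Segmented filamentous bacteria are spore-forming, host-adapted relatives of the clostridia that have not been kept in ordinary pure culture, hence the prefix Candidatus. They anchor to the epithelium of the ileum, and in mice this attachment induces Th17 cells, the helper T cells that secrete interleukin-17. The bacteria are host-adapted: strains from rats and mice colonise and attach best in their own host. The cecum lies just below the ileum, so its contents can hold cells shed from that surface, and the attached layer itself was not sampled here. Interleukin-17 has been tied to blood pressure in mouse models of hypertension. No immune measurement entered the comparisons below.

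The genus Candidatus Arthromitus, of the family Clostridiaceae, was present in every rat and was scarce. It held 3561 reads in all, between 42 and 424 per rat, with a median of 81. As reads per 1000000 assigned reads of the library (rpm), it ran from 57.2 to 774 rpm, with a median of 170 rpm. Ordered by the mean over the 4 groups, it ranked 331 of 1455 genera. Its rank was 341 in the females and 257 in the males of SHR, and 380 and 354 in those of WKY.

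Most reads of the genus bore the name of the strain from the animals' own host species. The row SFB-rat-Yit, named for a segmented filamentous bacterium of the rat, held 3149 reads, 88.4% of the genus, and had between 33 and 398 reads in 33 of 33 rats. The row SFB-mouse held 238 reads, 6.68% of the genus, with up to 21 reads per rat, and was seen in 32 of 33 rats. The row SFB-mouse-NL held 174 reads, 4.89% of the genus, with up to 12 reads per rat, and was also seen in 32 of 33 rats. How reads were named is not given in the sources used here. Reads of 1 organism may be split over the 3 rows, and the names were not checked against the reads. Shares between rows are not corrected for genome length.

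At the genus level the median share of reads was higher in SHR than in WKY rats of both sexes, but no call was made on the size-factor scale that the limma fit uses. In SHR females the share ran from 127 to 351 rpm with a median of 175, and in WKY females from 57.2 to 238 with a median of 118. All 10 SHR females lay above the WKY female median, and 3 lay above every WKY female. On the size-factor scale, where each rat's reads are divided by a factor for its library, SHR females ran from 57.2 to 149 with a median of 83.0 and WKY females from 34.3 to 147 with a median of 79.8. There 5 of 10 SHR females lay above the WKY female median. The log2 fold change on log2(normalized value + 1) was 0.25 ± 0.33 (SE; 95% interval -0.41 to 0.92; limma adjusted p 0.750). The row did not pass in females, where limma called 13 of 1418 genera, 0.917%.

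SHR males ran from 129 to 774 rpm with a median of 234, and WKY males from 99.5 to 311 with a median of 138. The highest rat of each strain was SHR male 1 with 424 of 547938 reads, and WKY male 6 with 215 reads. On the size-factor scale SHR males ran from 65.2 to 331 with a median of 101, and WKY males from 47.0 to 320 with a median of 76.4. The groups overlapped on both scales, with 6 of 7 SHR males above the WKY male median in rpm and 5 of 7 on the size-factor scale. The log2 fold change was 0.43 ± 0.38 (SE; 95% interval -0.35 to 1.21; limma adjusted p 0.747). Limma called 0 of 1418 genera in males, 0.0%, although 164 had an unadjusted p under 0.05.

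**Figure D1:**
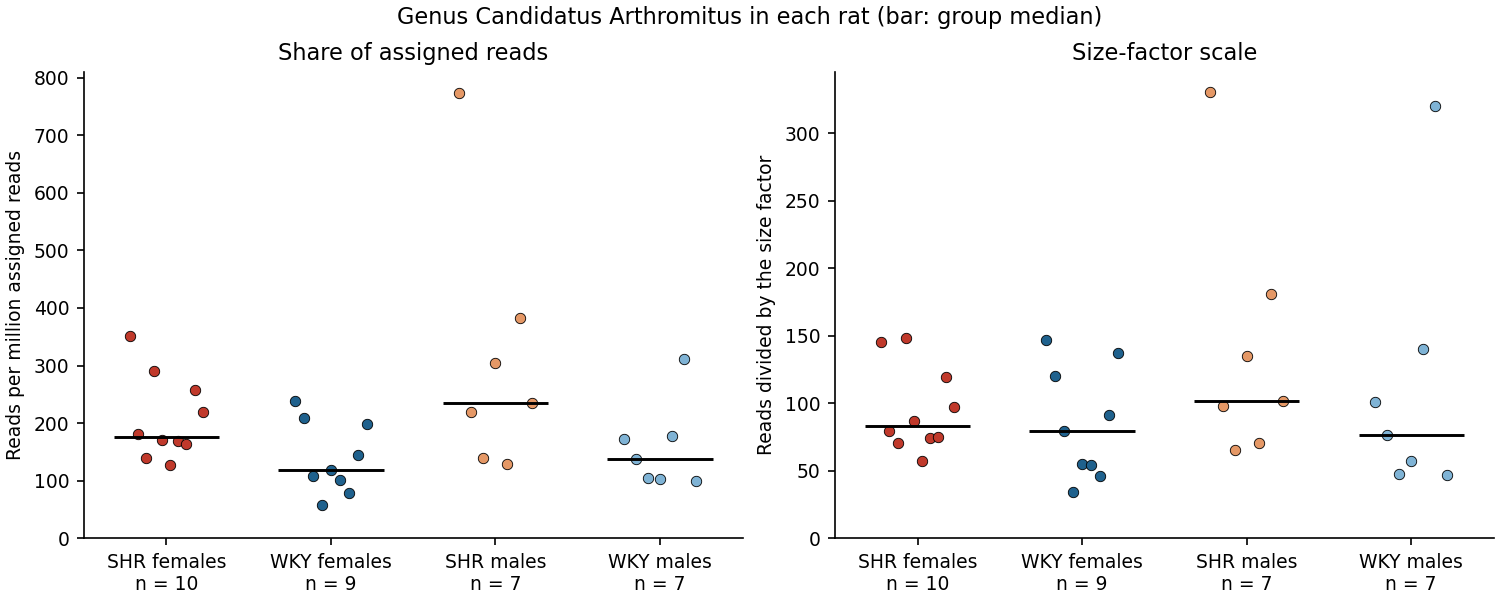
Each point is 1 rat, with the genus as reads per 1000000 assigned reads (rpm) on the left and as reads divided by the size factor on the right, and the bars are group medians. SHR medians of 175 in females and 234 in males stand above the WKY medians of 118 and 138 on the left. On the right the medians are 83.0 in SHR and 79.8 in WKY females, and 101 in SHR and 76.4 in WKY males.

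The share of bacterial genus reads was also tested by itself with a 2-sided exact permutation test over all splits of the rats. The mean log2 odds of the share were higher by 0.67 in SHR than in WKY females (exact permutation p 0.0205, adjusted over 4 contrasts 0.0781) and by 0.88 in SHR than in WKY males (p 0.0390, adjusted 0.0781). Neither passed after adjustment. The females passed without WKY female 1 (0.787, adjusted exact permutation p 0.0292) or WKY female 2 (0.765, adjusted 0.0440), and the males without SHR male 3 (1.03, adjusted 0.0466), SHR male 5 (1.05, adjusted 0.0410) or WKY male 6 (1.05, adjusted 0.0410). Leaving out one of those 3 males also brought the adjusted p of the females to 0.0466 or 0.0410, through the adjustment alone. With any other male left out, the adjusted p of the males stayed above 0.05, up to 0.161 without WKY male 7. The same held for the females with any other female left out, up to 0.0887 without WKY female 4. Without the 3 shallowest libraries the unadjusted exact permutation p was 0.0554 in females and 0.0647 in males (adjusted 0.129 in both). With all assigned reads as the denominator that p was 0.0276 and 0.0606, and neither passed after adjustment. On the scale of shares most genera moved the same way. With libraries scaled to equal totals, the median log2 fold change over all 1418 genera was 0.32 in females and 0.39 in males. Set against those medians, Candidatus Arthromitus stood 0.31 higher in females and 0.45 higher in males, and on the size-factor scale it stood 0.30 and 0.44 above the median.

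The row SFB-rat-Yit, which made up most of the genus, followed it closely. It ran from 107 to 317 rpm in SHR females, with a median of 143, and from 47.9 to 210 in WKY females, with a median of 103. In males the range was 98.4 to 726 with a median of 200 in SHR, and 90.7 to 296 with a median of 110 in WKY. All 10 SHR females and 6 of 7 SHR males lay above the WKY median of their sex in rpm, whereas 5 of 10 and 5 of 7 did so on the size-factor scale. The log2 fold change was 0.13 ± 0.35 in females (SE; 95% interval -0.58 to 0.84; limma adjusted p 0.882) and 0.35 ± 0.41 in males (95% interval -0.47 to 1.18; adjusted p 0.778). SFB-rat-Yit did not pass in either sex, where limma called 108 of 4641 species in females, 2.33%, and 25 in males, 0.539%. Without WKY female 4, the WKY rat with the lowest rpm of the genus, the value in females turned to -0.020.

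The row SFB-mouse, a minor part of the genus, had the highest log2 fold change between the strains among the 4 rows. SHR females had 4.75 to 40.9 rpm with a median of 17.8, against 1.76 to 16.2 with a median of 3.99 in WKY females. In reads, that was 1 to 18 per SHR female and 1 to 7 per WKY female. All 10 SHR females lay above the WKY female median and 6 lay above every WKY female, against 9 and 3 on the size-factor scale, so the groups overlapped. The median of 8 reads in SHR females came from libraries of lower depth than the median of 3 reads in WKY females.

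SHR males had 9.32 to 37.6 rpm of SFB-mouse with a median of 26.2, against 0 to 26.5 with a median of 2.93 in WKY males. The counts were 3 to 21 reads per SHR male, and the WKY males had 0, 1, 2, 2, 4, 5 and 18 reads. On both scales all 7 SHR males lay above the WKY male median, and 6 of 7 WKY males lay below every SHR male. The exception was WKY male 2, with 18 reads and 26.5 rpm. WKY male 5 had 0 of 773359 reads, which by a limit of 3 reads allows up to 3.88 rpm, and by the upper end of the exact 2-sided 95% interval 4.77 rpm, from counting error alone.

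On the size-factor scale the log2 fold change of SFB-mouse was 1.12 ± 0.41 in females (SE; 95% interval 0.30 to 1.94; limma adjusted p 0.136) and 1.81 ± 0.47 in males (95% interval 0.85 to 2.76; adjusted p 0.0640). Neither passed over the 4641 species tested, although 95% intervals of both lay above 0. The size of a fold change at values this low depends on the number added. On whole reads edgeR and DESeq2 gave higher values in females (1.46 and 1.51) and lower ones in males (1.58 and 1.60). The row entered the fit because 10 rats reached a normalized value of 10, of which 3 were SHR females, 6 were SHR males, 1 was a WKY male and 0 were WKY females. It thus entered mostly through the strain in which it was high, and without the filter the values stood at an adjusted p of 0.121 in females and 0.0551 in males (limma).

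The call for SFB-mouse depended on the test and the scale. On recovered whole reads, edgeR gave 1.46 in females (adjusted p 0.0474) and 1.58 in males (adjusted p 0.0721), and called 3.71% of species in females and 1.27% in males. DESeq2 gave 1.51 in females (adjusted p 0.0159) and 1.60 in males (adjusted p 0.0324), and called 5.26% and 3.75%. With libraries scaled to equal totals, limma gave 1.46 (adjusted p 0.0320) and 2.12 (adjusted p 0.0139), and called 7.48% and 3.73%. On that scale the median of all species was itself 0.29 in females and 0.36 in males, and SFB-mouse stood 1.17 and 1.76 above it. A 2-sided exact permutation test of this row by itself, chosen after the data were seen, gave p 0.0104 in females and 0.00758 in males, without adjustment over the other species, and is not a call over the table. With all 5999 species of the normalized table and no filter, in fits added after the data were seen, the adjusted p was 0.0456 in females and 0.0754 in males by edgeR (3.6% and 1.0% of species called), 0.0167 and 0.0298 by DESeq2 (5.42% and 3.82% called), and 0.0282 and 0.0124 by limma on equal totals (6.1% and 2.8% called). Without WKY male 2, the value in males was 2.18 (limma adjusted p 0.00868), and without SHR female 9 or SHR female 10, which share the fit, it stayed at 1.81 with an adjusted p of 0.0405 or 0.0484. Without the 3 shallowest libraries limma gave 1.45 in females (adjusted p 0.0310) and 1.71 in males (adjusted p 0.0686). The fits that left out rats kept the filter. Each called between 45 and 366 of 4641 species in females and between 10 and 229 in males, the ranges over all settings.

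The row SFB-mouse-NL, named for another genome of the mouse bacterium, was about as scarce, and its medians in rpm were also higher in SHR, without a call. SHR females had 0 to 33.3 rpm with a median of 12.3, against 2.48 to 17.3 with a median of 5.66 in WKY females. SHR males had 5.95 to 18.3 with a median of 11.9, against 1.47 to 16.0 with a median of 5.85 in WKY males. As with SFB-mouse, all 7 SHR males lay above the WKY male median on both scales, and 4 of 7 WKY males lay below every SHR male. In females 8 of 10 SHR rats lay above the WKY median in rpm and 6 on the size-factor scale. The groups overlapped in both sexes, and SHR female 6, with 0 of 384965 reads, could hold up to 7.79 rpm by the limit of 3 reads. This row did not pass the filter, since 4 rats reached a normalized value of 10, 2 SHR females and 2 WKY males. In a fit without the filter, added after the data were seen, its log2 fold change was 0.24 ± 0.41 in females (SE; 95% interval -0.59 to 1.07; limma adjusted p 0.820) and 0.28 ± 0.48 in males (95% interval -0.69 to 1.24; adjusted p 0.872).

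**Figure D2:**
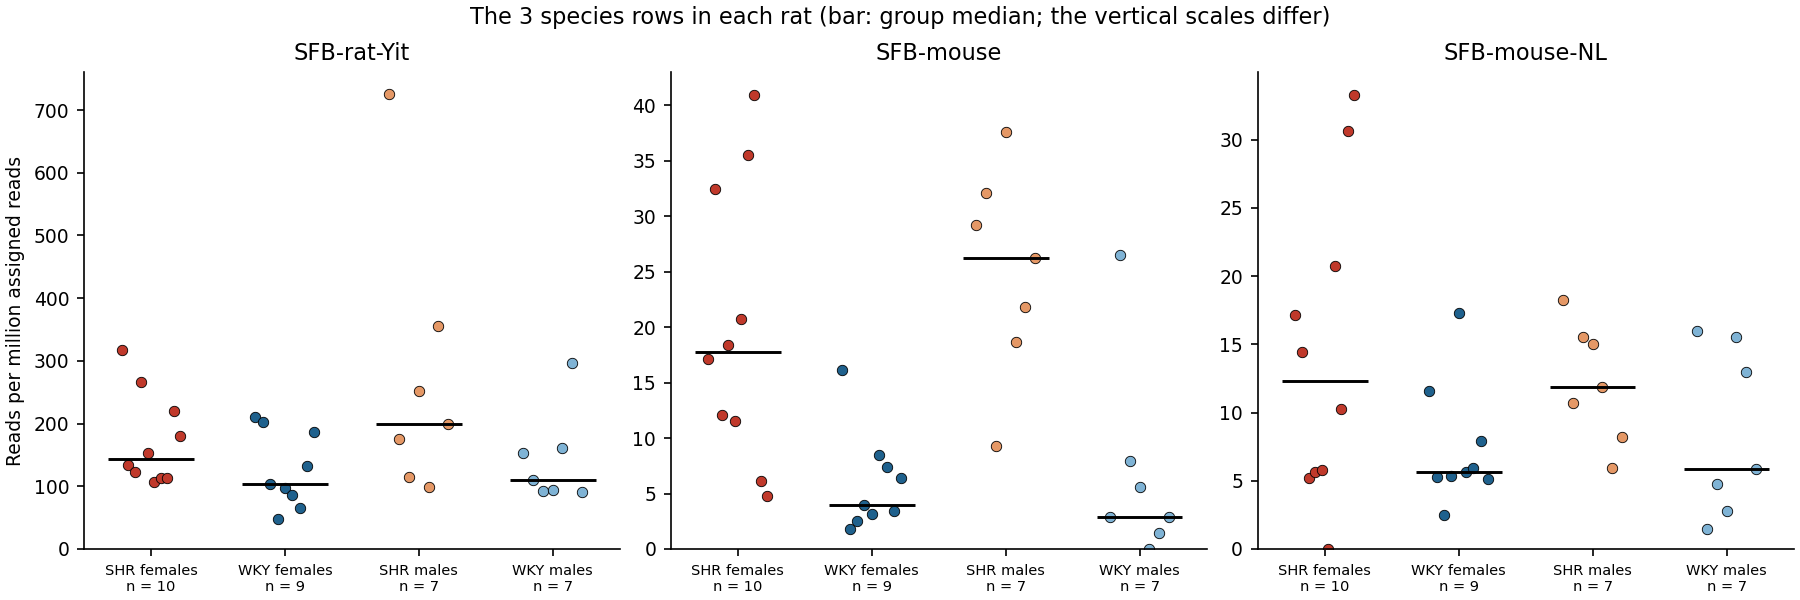
Each point is 1 rat and each panel 1 species row, in reads per 1000000 assigned reads (rpm), with group medians as bars and a vertical scale of its own per panel. In the SFB-mouse panel 6 of 7 WKY males lie below every SHR male, and WKY male 2 at 26.5 is the exception.

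The share of SFB-mouse within the genus reads was higher in SHR in both sexes, which is given as a description without a test. SFB-mouse held 84 of 851 genus reads in SHR females, 9.87% (exact 95% interval 7.95 to 12.1%), and 34 of 833 in WKY females, 4.08% (2.84 to 5.66%). In males it held 88 of 1105 in SHR, 7.96% (6.44 to 9.72%), and 32 of 772 in WKY, 4.15% (2.85 to 5.80%). These pooled intervals cover counting error alone and leave out the spread between rats. Per rat the share ran from 2.17 to 25.0% in SHR females and from 0.840 to 9.43% in WKY females, with 8 of 10 SHR females above the WKY female median. Among males it ran from 3.77 to 14.7% in SHR and from 0 to 19.1% in WKY, with 7 of 7 SHR males above the WKY male median. Without WKY male 2, which held 18 of the 32 reads, the pooled share in WKY males was 14 of 678 reads, 2.06%. Of the pooled genus reads of females, SFB-mouse-NL took 5.52% in SHR and 5.28% in WKY, and of those of males 3.71% in SHR and 5.44% in WKY. The medians per rat were 5.56% in SHR and 5.47% in WKY females, and in males, with the order turned, 4.90% in SHR and 4.55% in WKY. SHR male 1 held 424 of the 1105 genus reads of SHR males, and without it the pooled shares in SHR males were 4.55% for SFB-mouse-NL and 84.9% for SFB-rat-Yit. SFB-rat-Yit took 84.6% in SHR and 90.6% in WKY females, and 88.3% in SHR and 90.4% in WKY males. Its medians per rat were 84.7% in SHR and 88.3% in WKY females, and 82.7% in SHR and 91.2% in WKY males.

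**Figure D3:**
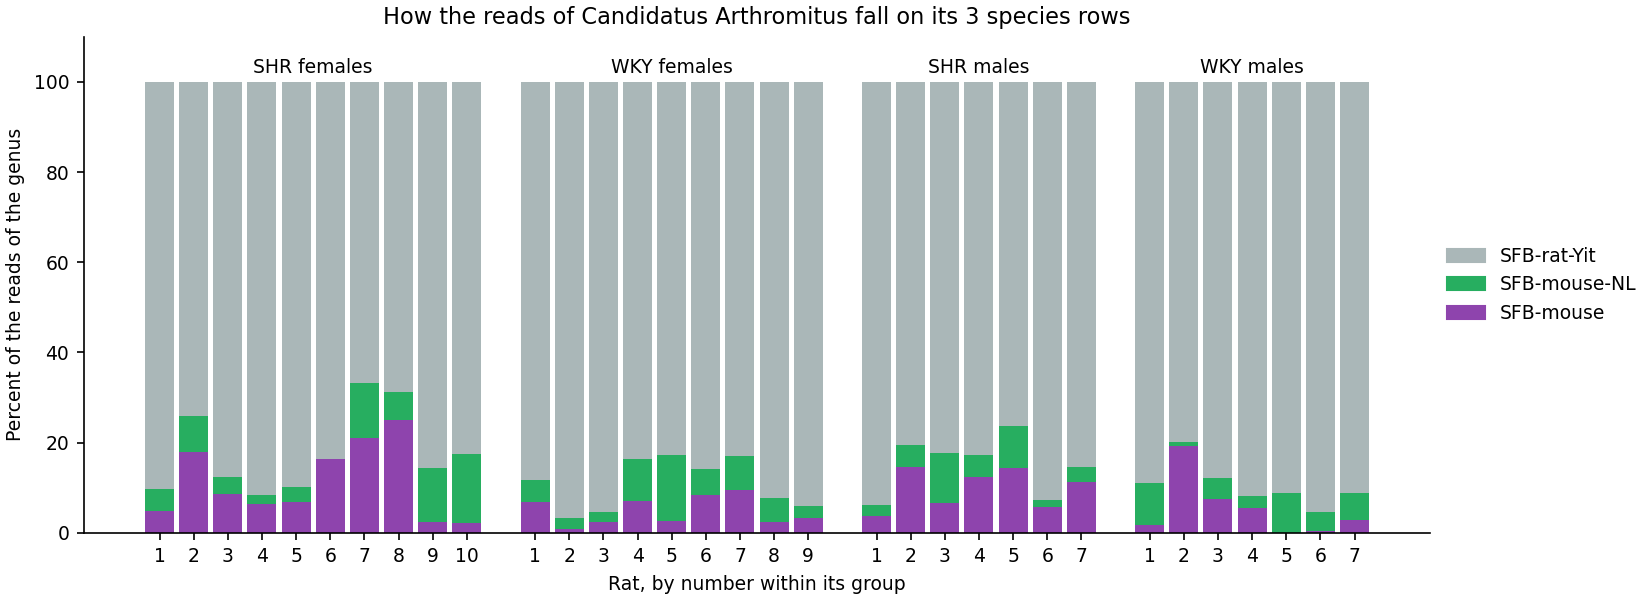
Each bar is 1 rat and splits its Candidatus Arthromitus reads, in percent, over the 3 species rows. SFB-rat-Yit fills at least 66.7% of every bar, and the SFB-mouse part is widest in SHR female 8 at 25.0%.

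The sexes of a strain overlapped in all 4 rows. For the genus, female minus male was -0.40 ± 0.35 in SHR (SE; 95% interval -1.12 to 0.31; limma adjusted p 0.989) and -0.23 ± 0.36 in WKY (95% interval -0.96 to 0.50; adjusted p 0.861). Limma called 0 of 1418 genera between the sexes of SHR, 0.0%, with 45 at an unadjusted p under 0.05, and 34 between those of WKY, 2.4%. SFB-rat-Yit stood at -0.45 ± 0.37 in SHR and -0.23 ± 0.38 in WKY (limma adjusted p 0.988 and 0.850). SFB-mouse stood at -0.43 ± 0.44 in SHR and 0.26 ± 0.45 in WKY (adjusted p 0.988 and 0.858), and SFB-mouse-NL at -0.12 and -0.087. Among species limma called 0 of 4641 between the sexes of SHR, 0.0%, with 167 at an unadjusted p under 0.05, and 33 between those of WKY, 0.711%. Without WKY male 6 the genus value in WKY turned to 0.076 and the SFB-rat-Yit value to 0.086.

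The strain difference itself was compared between the sexes by the strain-by-sex term, females minus males. It was -0.17 ± 0.50 for the genus (SE; 95% interval -1.20 to 0.85; limma adjusted p 0.982), -0.22 ± 0.54 for SFB-rat-Yit (adjusted p 0.978) and -0.69 ± 0.63 for SFB-mouse (95% interval -1.95 to 0.57; adjusted p 0.882). No row of the group passed, and limma called 0 of 1418 genera, 0.0%, with 87 at an unadjusted p under 0.05, and 1 of 4641 species, 0.0215%. Without SHR male 1 the genus value was 0.066 and the SFB-rat-Yit value 0.046. The intervals leave room for a difference between the sexes of over 1 log2 unit.

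**Figure D4:**
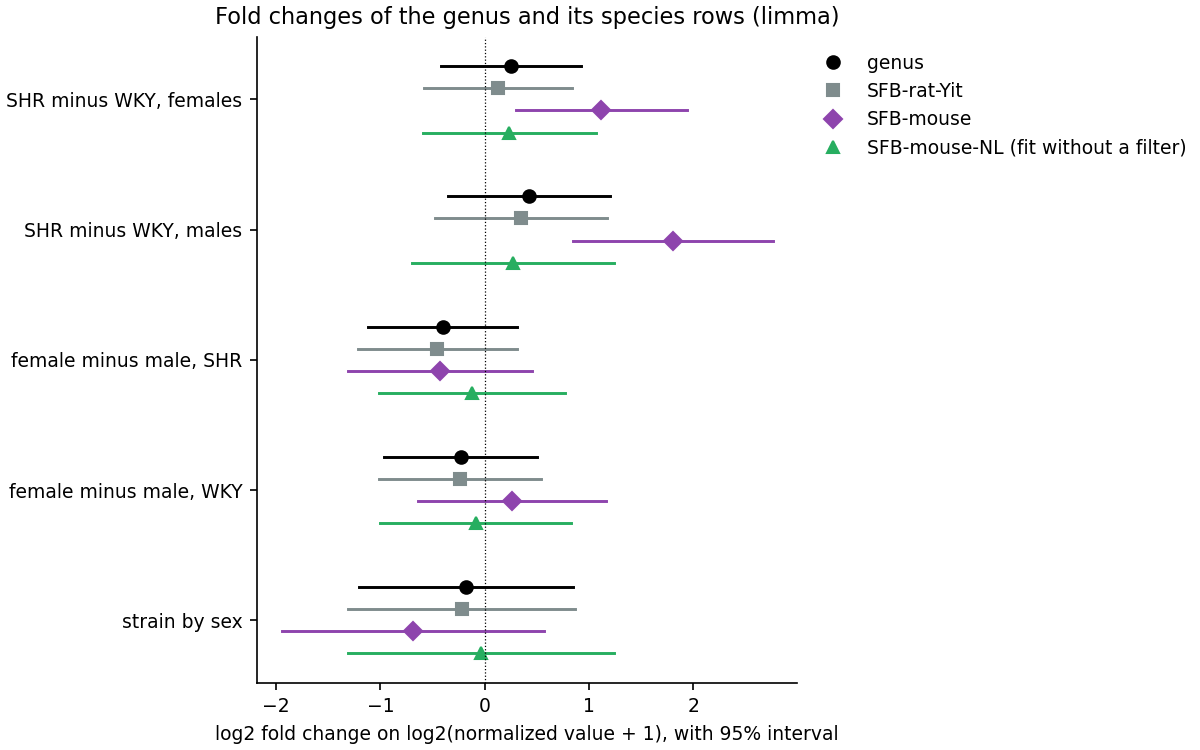
Points are log2 fold changes on log2(normalized value + 1) from limma, with 95% intervals, for the genus and the 3 species rows in the 5 contrasts. The SFB-mouse intervals, 0.30 to 1.94 in females and 0.85 to 2.76 in males, are the ones that do not reach 0.

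Among its relatives the genus took a larger part of the family's reads in SHR. Of the reads of the 9 deposited Clostridiaceae genera, Candidatus Arthromitus held 0.535 to 1.62% in SHR females with a median of 0.670%, against 0.229 to 0.699% with a median of 0.367% in WKY females. In males it held 0.532 to 2.67% with a median of 0.868% in SHR, against 0.266 to 0.478% with a median of 0.349% in WKY. The ranges of the males did not overlap, and those of the females did. This share was not tested, and how many other genera part the males of the strains in this way was not counted. The denominator moved too: Clostridium, by far the most abundant genus of the family, had a median of 20162 rpm in SHR females against 27110 in WKY females, and of 21331 in SHR males against 33519 in WKY males. Its log2 fold change was -0.81 ± 0.25 in females (limma adjusted p 0.0981) and -1.09 ± 0.29 in males (adjusted p 0.0734).

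Limma called 0 of the other 8 Clostridiaceae genera in every contrast, with an unadjusted p under 0.05 in 3 between the strains in females and in 1 in males, beside the shares of all genera called above. Their log2 fold changes between the strains lay above 0 for 2 and below 0 for 6 genera in each sex. The median was -0.25 in females, against -0.046 over all genera, and -0.12 in males, against -0.0085 over all genera. Hungatella, a gut clostridium, stood at 0.48 in females (limma adjusted p 0.176), and Candidatus Arthromitus at 0.25 shared its sign.

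Other bacteria reported to raise or lower Th17 cells in the mouse gut were set beside the segmented filamentous bacteria. The list held Citrobacter rodentium, an attaching pathogen of mice, Escherichia coli, Bifidobacterium adolescentis and Eggerthella lenta as inducers, and Ligilactobacillus murinus, which has been reported to lower them. All 5 were tested and 0 were called by limma in any of the 5 contrasts, beside 2.33% of all species called between the strains in females and 0.539% in males. An unadjusted p under 0.05 was found in 2 between the strains in females, in 1 in males and in 2 between the sexes of SHR, against 785, 638 and 167 of all 4641 species. In females the median of the list was -0.73 against -0.066 over all species, and in males -0.23 against -0.019. These medians pool the reported inducers with Ligilactobacillus murinus, so they give no direction for inducers alone. Eggerthella lenta, an actinobacterium that metabolises drugs and plant compounds, had 142 to 261 rpm in SHR females, with a median of 207, against 144 to 472 with a median of 302 in WKY females. Its log2 fold change was -0.77 ± 0.22 (limma adjusted p 0.0528). Citrobacter rodentium stood at -0.85 ± 0.29 in females (adjusted p 0.109), while its median share was 40.8 rpm in SHR and 39.9 rpm in WKY females. Escherichia coli stood at -0.73 in females and -1.01 in males (limma adjusted p 0.314 and 0.281). Ligilactobacillus murinus stood at 0.48 and Bifidobacterium adolescentis at 0.11 in females (limma adjusted p 0.770 and 0.800). In males these 2 stood at 0.18 and -0.20 (limma adjusted p 0.949 and 0.750). Eggerthella lenta stood at -0.23 and Citrobacter rodentium at -0.27 in males (limma adjusted p 0.777 and 0.809).

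Bacteria that live in the small intestine of rodents, the site of segmented filamentous bacteria, formed the other list. Of its 7 species 5 were tested, and no values are given for Lactobacillus intestinalis and Lactobacillus taiwanensis. Among these 5, 1 fell in each sex, beside 2.33% of all species called in females and 0.539% in males. It was Limosilactobacillus reuteri, a lactic acid bacterium, which fell by 1.73 ± 0.48 in females (SE; limma adjusted p 0.0449) and by 2.40 ± 0.55 in males (adjusted p 0.0327). The median of the 5 was -0.99 in females and -1.06 in males, against -0.066 and -0.019 over all species. An unadjusted p under 0.05 was found in 4 of the 5 in females and in 2 in males, against 785 and 638 of all 4641 species. Lactobacillus johnsonii stood at -2.29 in females and -1.39 in males (limma adjusted p 0.0728 and 0.454). Romboutsia ilealis, an ileal clostridium, stood at -0.99 in females and -1.06 in males (limma adjusted p 0.239 and 0.356). Turicibacter sanguinis stood at -0.89 in females and -0.37 in males (limma adjusted p 0.253 and 0.809). Ligilactobacillus murinus was the 1 tested member with a value above 0 in each sex.

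Across rats no correlation between the species rows passed adjustment, which at counts of a few reads cannot show that they vary separately. On log2(normalized value + 1) over 33 rats, SFB-rat-Yit and SFB-mouse had a Pearson r of 0.0036 (permutation p 0.984) and a Spearman rho of 0.066 (permutation p 0.715). Within the SHR groups their rho was -0.49 (females) and 0.54 (males), and within the WKY groups 0.22 and -0.43. SFB-rat-Yit and SFB-mouse-NL had an r of 0.39 (permutation p 0.0252, adjusted over 3 pairs 0.0757) and a rho of 0.35 (p 0.0464, adjusted 0.139), and r was 0.28 without the 2 rats farthest from the median. Within groups that rho was 0.27 and -0.036 in SHR females and males, and 0.15 and 0.68 in WKY females and males. SFB-mouse and SFB-mouse-NL had an r of -0.21 and a rho of -0.12 (permutation p 0.242 and 0.509), with a rho of -0.27 and 0.036 in SHR females and males, and 0.23 and -0.79 in WKY females and males. No pair passed after adjustment, and counts of a few reads limit any such relation.

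The genera whose levels followed Candidatus Arthromitus most closely over the 33 rats were Halanaerobium (Spearman rho 0.70), Anoxybacillus (0.69), Pelosinus (0.69), Sporosarcina (0.68) and Tissierella (0.66), among 1417 genera with a median rho of -0.075. As the mean of the correlations within the 4 groups, the order was Anoxybacillus (0.75), Halanaerobium (0.73), Psychroflexus (0.72), Denitrobacterium (0.69) and Loigolactobacillus (0.69). All of these values share the size factor of each library. Several of the names belong to bacteria of brines, soils and other places outside the gut, and they were not checked against the reads.

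The authors' deposited tables of their own models hold SFB-mouse under 2 identities, because the printed names and the row IDs do not belong together. In the authors' deposited table of the general model, 383 of 463 rows have an ID found among the deposited species. In 383 of 383 the stored mean equals the mean of the species with that ID, with a relative tolerance of 1e-06, whereas the printed name is that of the ID in 1. In the authors' deposited table for females 2 of 187 printed names match the ID, and in that for males 2 of 33. The row printed as SFB-mouse in the authors' deposited table for females carries the ID of Bacteroides intestinalis and a mean of 1409.03, where the normalized mean over females is 1493 for Bacteroides intestinalis and 6.50 for SFB-mouse. The row printed as SFB-mouse in the authors' deposited table of the general model carries the ID of Capnocytophaga sp. H4358 and a mean of 4.76, where the normalized mean over all rats is 4.76 for that species and 6.95 for SFB-mouse.

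Read by ID, SFB-mouse is present in the authors' deposited table for females, where it is printed as Asticcacaulis excentricus. Its log2 fold change there is -1.50 ± 0.40 (standard error) with an adjusted p of 0.00604, in the authors' deposited table. In the authors' deposited table of the general model it is printed as Duncaniella sp. B8, with a log2 fold change of -1.30 ± 0.45, an adjusted p of 0.00106 and a mean of 6.95, equal to its mean of 6.95 in the normalized table. In that authors' deposited table the p-values are those of a chi-square with 3 degrees of freedom in 463 of 463 rows, so they do not test the single fold change beside them. The signs in the authors' deposited table for females are opposite to SHR minus WKY in 158 of 158 tested species matched by ID, and in that for males in 30 of 30, so a negative value there goes with a higher level in SHR. SFB-mouse is not among the rows of the authors' deposited table for males, and SFB-rat-Yit and SFB-mouse-NL are in none of the 3 tables by ID.

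**Figure D5:**
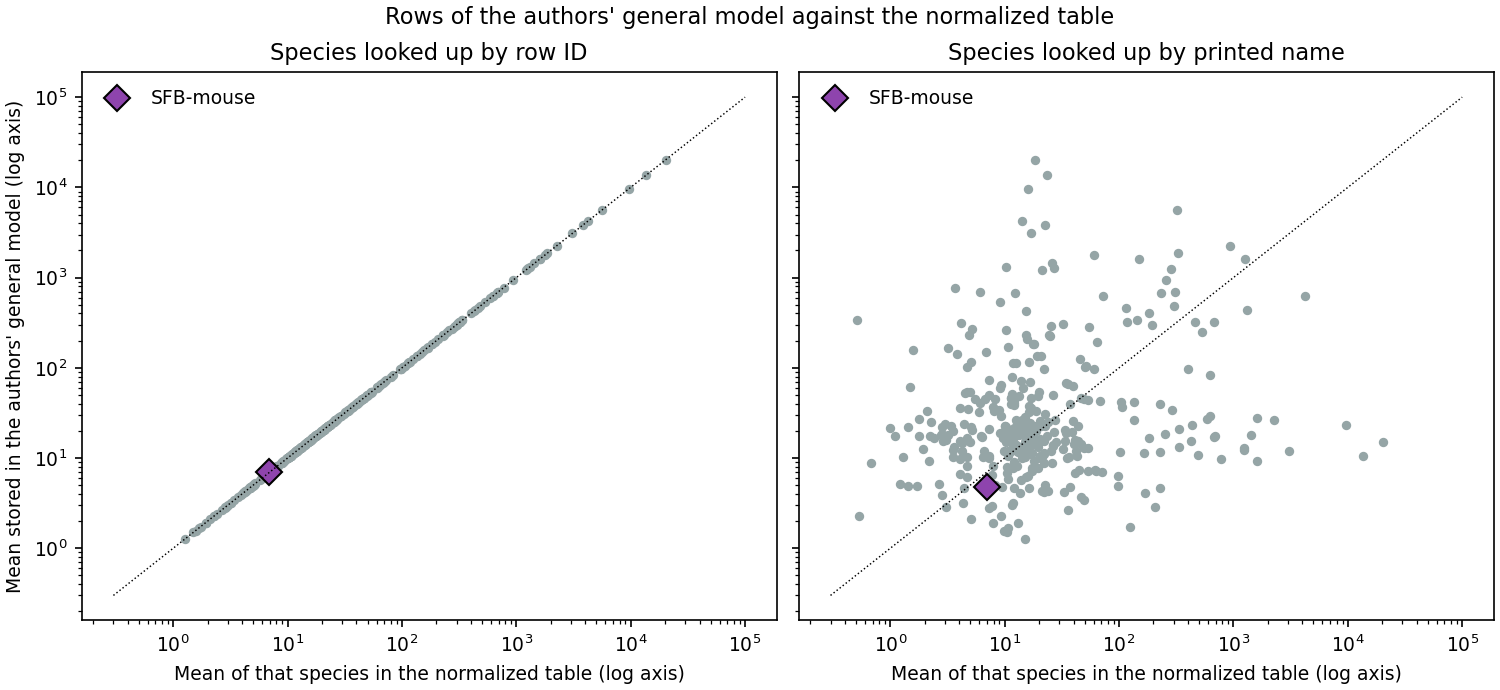
Each point is 1 of the 383 rows of the authors' general model with an ID among the deposited species, with the stored mean on the vertical axis and the mean in the normalized table on the horizontal axis, both logarithmic, looked up by row ID on the left and by printed name on the right. By ID the points lie on the line of equality, SFB-mouse at 6.95 included, and by name they scatter around it. Rows whose printed name has no mean in the normalized table are not drawn on the right.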

How the data were processed

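The authors deposited percent of reads per bacterial genus and species, and a normalized signal, the reads of each taxon divided by a size factor of the library. The authors also deposited log2 fold changes with p-values and adjusted p-values of their models. The submitters' processing notes list Trimmomatic 0.36, cutadapt 2.6, FastQC 0.11.5 and DESeq2, the last with no version. Which classifier and database named the reads is not given in the sources used here.

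Low values were whole multiples of 1 read, and 100% of values came out whole within 0.01 read. Percent and normalized tables gave equal reads in 100% of values. Main tests used limma with trend and robust estimation on log2(normalized value + 1), 4 group means over 33 rats, for the 1418 of 1455 genera and 4641 of 5999 species that reached 10 in at least 7 rats. Benjamini-Hochberg adjustment covered each table, and a call is an adjusted p under 0.05. Tests were 2-sided. Alternatives were edgeR with TMM and DESeq2 on recovered reads, percent of reads, centred log-ratios, pseudocounts of 0.5 and 10, other filters or none, and leaving out rats. The limma fit was tested on simulated counts of genera, and the species rows and other tests were not tested in this way. Genera to name were the 5 closest to Candidatus Arthromitus by correlation. The members and lists were chosen with earlier results of these data known. The labels give no cage or litter, and p-values measure the spread between rats. Reads carry no molecular identifiers, so intervals and limits cover counting error only. Tools were limma 3.58.1, DESeq2 1.42.0 and edgeR 4.0.16 in R 4.3.3, with pandas 2.3.3 and scipy 1.17.1 in Python 3.11.15.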

Additional observations from a re-analysis of the deposited data

Results flagged for a closer look

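In 7 of 28 groups of values a single rat stood far from the rest of its group, by Dixon's test at the 95% level. Chance passes that level in about 1 in 20 groups of normally distributed values. The shares were tested without a log scale, and in all 7 groups the rat was the highest. The values of the genus and of its rows share reads, so these results are not independent of each other.

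SHR male 1 had 774 reads per 1000000 assigned reads (rpm) of Candidatus Arthromitus against 383 in the next SHR male, and 726 of SFB-rat-Yit against 355. WKY male 6 had 311 rpm of the genus against 177 in the next WKY male, and 296 of SFB-rat-Yit against 162. WKY male 2 had 26.5 rpm of SFB-mouse against 7.97 in the next WKY male, and SFB-mouse took 19.1% of its genus reads against 7.58%. WKY female 1 had 16.2 rpm of SFB-mouse against 8.49 in the next WKY female.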

How the results depend on the processing

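Of 841 alternatives run on 19 results, 804 kept direction and side of the threshold, 26 crossed to an adjusted p under 0.05 and 11 turned in sign. None of the 19 was called in the main setting, so none could lose a call. Of the 26, 16 were adjusted over all taxa, and 8 of the genus share and 2 of the exact test over 4 contrasts only. No paired analysis was possible because the labels give rats of different groups no shared number. SFB-mouse in females (1.12) was called by DESeq2 (1.51; 1.50 with no filter), edgeR (1.46; 1.47 with no filter), on percent of reads (1.46 with and without the filter) and without the 3 shallowest libraries (1.45). The exact permutation test of the row by itself (1.12) is not a call over the table. Leaving out each rat in turn gave 0.989 to 1.30, with no call. SFB-mouse in males (1.81) was called by DESeq2 (1.60; 1.59 with no filter), on percent of reads (2.12 with and without the filter), on centred log-ratios (2.11) and by limma without trend or robust estimation (1.81), and the exact permutation test (1.81) again is not a call over the table. The combined settings with no filter were chosen after seeing the data. Centred log-ratios, limma without trend or robust estimation and all fits leaving out rats kept the filter, which the row passed mostly through SHR rats. For these the number of species called is given only as part of the ranges below. In males leaving out each rat gave 1.52 to 2.18, with calls without SHR female 9, SHR female 10 or WKY male 2. The cause was not tested. A pseudocount of 10 shrank the values to 0.46 in females and 0.68 in males, and the stricter filter of 50 removed the row. The SFB-mouse difference between the sexes turned to 0.0028 in SHR without the 3 shallowest libraries. In WKY it turned to -0.17 with DESeq2 (also with no filter), -0.15 with edgeR, -0.16 with edgeR and no filter, and -0.032 without WKY male 5, the lowest of -0.032 to 0.63.

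The genus share of bacterial reads, leaving out each rat, ran from 0.533 to 0.787 in females, called without WKY female 1, WKY female 2, SHR male 3, SHR male 5 or WKY male 6, and from 0.619 to 1.05 in males, called without SHR male 3, SHR male 5 or WKY male 6. For rats outside the 2 groups compared, the adjustment over 4 contrasts alone moved the call. The genus share was not called with all assigned reads as the denominator (0.642 in females, 0.841 in males). Nor was it called without the 3 shallowest libraries (0.609 in females, 0.842 in males). The genus value between the sexes of WKY ran from -0.38 to 0.076, and strain by sex from -0.48 to 0.066. For SFB-rat-Yit the ranges were -0.020 to 0.25 between the strains in females, -0.39 to 0.086 between the sexes of WKY and -0.54 to 0.046 for strain by sex. Across settings the number of species called ran from 45 to 366 in females (108 in the main setting), 10 to 229 in males (25) and 1 to 236 between the sexes of WKY (33). For genera it ran from 9 to 156 in females (13), 0 to 83 in males (0) and 0 to 70 between the sexes of WKY (34). Depth limits SFB-mouse and SFB-mouse-NL, with at most 21 and 12 reads per rat.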
